A study of Mus musculus with 12 samples.

Results

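The transcripts of 10 proteins stored in the secondary (specific) and tertiary (gelatinase) granules of neutrophils were followed in mouse bone-marrow neutrophils of both Rab27a genotypes, with and without a Toll-like receptor 9 ligand. The genes were chosen by name, for the granule that holds their product: the iron-binding and antimicrobial proteins Ltf, Camp, Ngp and Lcn2, the lectin Chil3, the haemoglobin-binding protein Hp, and the metalloproteases Mmp8, Mmp9, Mmp25 and Adam8. All 10 were among the 15986 genes with a row in the data and all 10 passed the filter on low counts, which left 10802 genes for testing. Cells were labelled mature neutrophils of C57BL/6 bone marrow, collected with beads against the surface protein Ly6G, and were wild-type or Rab27a knockout. They then spent 6 h in culture with 5 µM CpG-B, a synthetic DNA oligonucleotide that activates Toll-like receptor 9, or without it (unstimulated). The 4 groups of 3 libraries each were unstimulated wild-type, wild-type with CpG, unstimulated knockout and knockout with CpG. The sources used here do not give the knockout allele, the sex and age of the animals, or whether the 3 numbered samples of a group were separate animals, so p-values measure the spread between samples, which may be partly technical.

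A developing neutrophil fills its granules in sequence. Specific granules, rich in lactoferrin and the cathelicidin precursor, form in myelocytes and metamyelocytes, and gelatinase granules form later, in band cells, from the proteins being made at that stage. Transcription of many of these genes depends on the factor C/EBP epsilon and declines as the cell matures, so a mature neutrophil largely carries protein made earlier. Rab27a is a small GTPase that docks secretory granules at the plasma membrane.

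Libraries held between 10928813 and 15513279 estimated counts. Rab27a itself was present in every library, at 231, 251 and 335 CPM (counts scaled to the size of each library) in the unstimulated wild-type libraries numbered 1, 2 and 3, 207, 216 and 285 in wild-type with CpG, 129, 116 and 94.9 in unstimulated knockout and 114, 113 and 96.1 in knockout with CpG. Every knockout library lay below every wild-type library, and the log2 difference was -1.26 (SE 0.17, adjusted p = 0.000365) without CpG and -1.14 (SE 0.17, adjusted p = 0.00112) with it. Neutrophil markers were abundant in all 12 libraries, with S100a8 at 5377 CPM or more. The lowest S100a8 value belonged to knockout with CpG number 2, where the other libraries held at least 10301 CPM. Transcripts of proliferating and immature cells were also found: 14 such genes averaged 4.99 CPM (Tyms) to 469.7 CPM (Mki67) over the 12 libraries, with Top2a next at 149.6 CPM and the remaining 11 between 14.2 and 45.3 CPM. Markers of other marrow cells were present, and none was at 0 in all libraries. The 9 erythroid markers summed to 3952 to 5199.8 CPM in unstimulated wild-type and 4310.4 to 5153 CPM in wild-type with CpG. In the knockout they summed to 438, 1819 and 5958 CPM in unstimulated libraries 1, 2 and 3 and to 521, 1653 and 6051 CPM in those with CpG, so the number 1 samples were low and the number 3 samples high. The 8 B cell markers with a row and the myeloperoxidase gene Mpo, a marker of immature granulocytes, followed the same order in the knockout, with Mpo at 17.4, 68.9 and 223 CPM without CpG.

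Levels of different genes were compared as TPM, which scales for transcript length as well as depth. The cathelicidin-related gene Ngp was the most abundant of the 10, at 24702 ± 4062 TPM (SD, n = 3) in unstimulated wild-type cells, and ranked 3 among all genes by mean TPM in each of the 4 groups. Camp, Lcn2 and Ltf followed at 7493 ± 1559, 6892 ± 555 and 5371 ± 1031 TPM. Their order was not resolved, since the libraries of Camp overlapped those of Lcn2, and those of Lcn2 overlapped those of Ltf. Chil3 (2637 ± 803 TPM) and Mmp9 (1841 ± 311 TPM) came next and also overlapped. Below them stood Mmp8 at 1258 ± 179.9 TPM, Adam8 at 879 ± 32.6 TPM, Hp at 695 ± 116 TPM and Mmp25 at 145 ± 22.4 TPM, with no overlap between neighbours in this order.

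With CpG the order differed in both genotypes. Lcn2 took the place after Ngp, ahead of Camp, at 8885 ± 396 TPM in wild-type and 9479.9 ± 600.2 TPM in knockout, although the libraries of these genes overlapped. Hp moved above Mmp8, to 1123 ± 171 TPM in wild-type and 1561 ± 324 TPM in knockout. Its libraries overlapped those of Mmp8 in wild-type and those of Mmp9 in knockout. Adam8 stood at 577 ± 37.3 and 573 ± 41.1 TPM, with only Mmp25 below it. In unstimulated knockout cells Adam8 (1098 ± 40.8 TPM) and Mmp8 (1045 ± 132 TPM) overlapped.

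**Figure D1:**
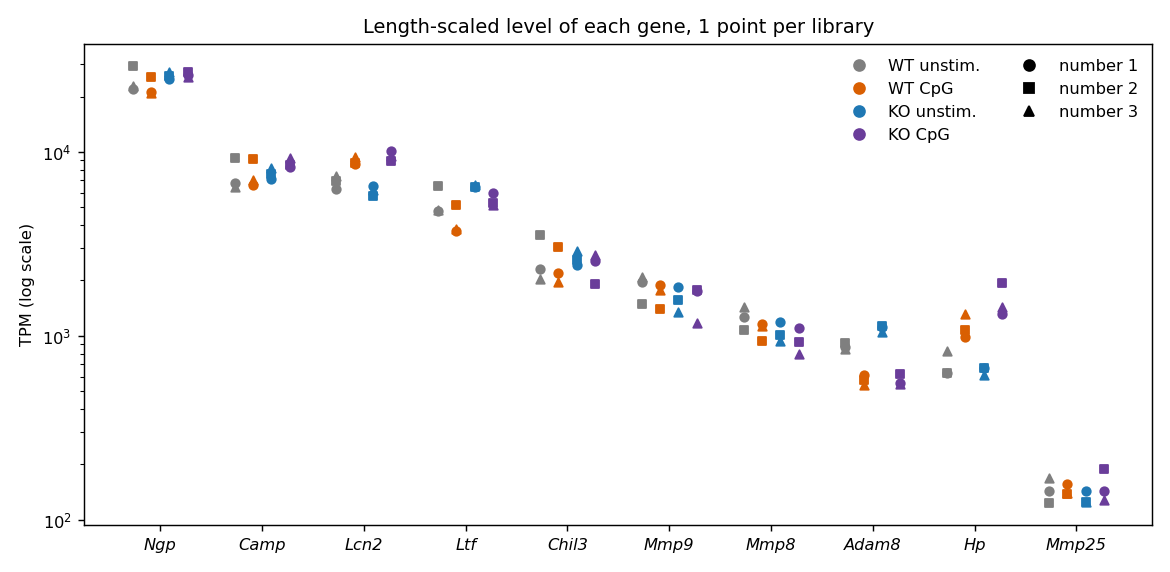
Level of each granule gene on a log axis of TPM, with genes ordered by their unstimulated wild-type mean; each point is 1 library, coloured by group, and the shape gives the sample number. Ngp lies above the other genes and Mmp25 below them in all 4 groups, and Hp moves up and Adam8 down with CpG.

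Together the 10 genes held 4.17 to 5.13% of all counts in unstimulated wild-type libraries, 3.83 to 4.42% in wild-type with CpG, 4.27 to 4.51% in unstimulated knockout and 4.09 to 4.71% in knockout with CpG. These ranges overlapped in every pair of groups. In the 3 same-numbered wild-type pairs the share was lower with CpG each time, at 4.17 and 3.83% for number 1, 5.13 and 4.42% for number 2 and 4.33 and 4.04% for number 3. In the knockout it was higher with CpG for number 1 (4.27 and 4.71%) and lower for number 2 (4.46 and 4.09%) and number 3 (4.51 and 4.31%). These shifts were not tested. In RNA from bulk samples, fewer cells of a type and less RNA per cell cannot be told apart.

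By count, 3 granule genes changed with CpG by edgeR's quasi-likelihood test, called where the p adjusted by Benjamini-Hochberg over all genes tested was at most 0.05: Hp rose and Adam8 fell in both genotypes, and Lcn2 rose in the knockout. In wild-type cells 2 of 10 granule genes passed, 1 higher and 1 lower, where 6.04% of all tested genes did (4.74% higher and 1.3% lower). In knockout cells 3 of 10 passed, 2 higher and 1 lower, where 11.6% of all genes did (7.57% higher and 4.06% lower). The remaining 7 genes, among them Ngp, Camp and Ltf, passed in neither genotype. The median log2 fold change of the 10 was -0.13 in wild-type and 0.11 in knockout, beside -0.0070 and -0.0064 over all genes tested. Groups did not overlap for 3 of 10 genes (Hp, Lcn2 and Adam8) in either genotype, beside 25.7% of all genes in wild-type and 24.2% in knockout. With library size alone as the scaling, the genes called in knockout cells split into 739 higher and 778 lower, against 818 and 439 with the main scaling, and the calls of Hp, Lcn2 and Adam8 stayed.

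Same-numbered wild-type libraries with and without CpG deviated together from their group means, so a paired fit was also read for that genotype. It used all 12 libraries, with number as a block within each genotype. Its p-values for wild-type therefore also rest on the spread of the knockout libraries, where number 2 correlated at only 0.085. The paired fit called 5 of the 10 granule genes in wild-type cells, Hp and Lcn2 higher and Ltf, Mmp8 and Adam8 lower, where it called 1824 genes in all, 16.9% of those tested.

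**Figure D2:**
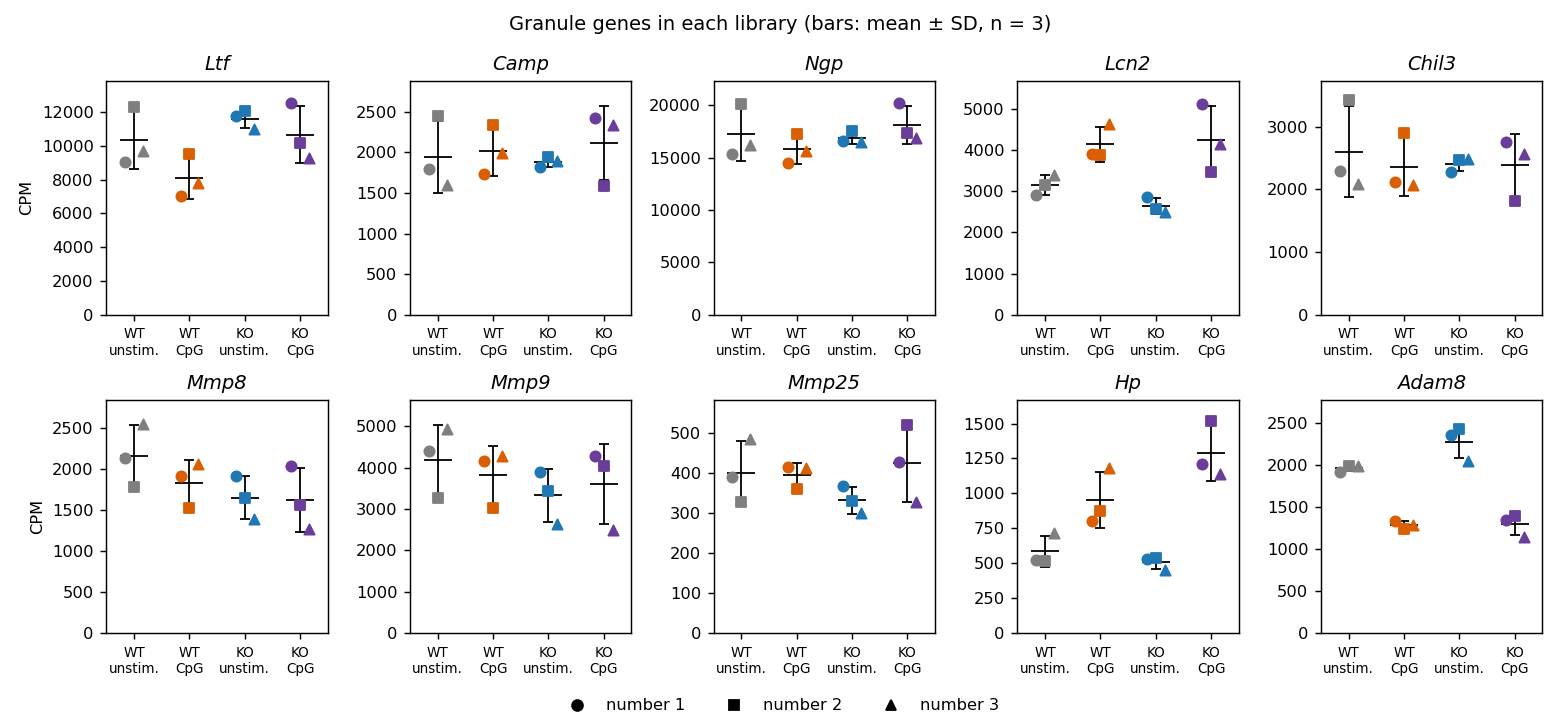
CPM of each granule gene in each library, with a linear axis from 0 for each gene; points are libraries with the shape giving the sample number, and bars show the mean ± SD of 3. Hp and Lcn2 are higher and Adam8 lower in every library with CpG than in every unstimulated library of the same genotype.

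Among the antimicrobial and iron-sequestering proteins, lactoferrin (Ltf) binds free iron and is the classic marker of specific granules. Ltf stood at 9049, 12257 and 9692 CPM in unstimulated wild-type libraries 1, 2 and 3, 7008, 9482 and 7806 CPM in wild-type with CpG, 11744, 12024 and 11015 CPM in unstimulated knockout and 12535, 10148 and 9269 CPM in knockout with CpG. The wild-type groups overlapped, with number 2 high in both, and the unstimulated knockout libraries lay close together. The log2 fold change with CpG was -0.35 (SE 0.17, adjusted p = 0.333) in wild-type and -0.12 (SE 0.17, adjusted p = 0.764) in knockout. Within same-numbered wild-type pairs the log2 changes were -0.37, -0.37 and -0.31, lower with CpG in 3 of 3 pairs, and the paired fit gave an adjusted p of 0.0133.

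Lipocalin 2 (Lcn2) captures bacterial siderophores, the small molecules with which microbes gather iron. Lcn2 measured 2905, 3162 and 3389.9 CPM in unstimulated wild-type, 3911, 3874 and 4625 CPM in wild-type with CpG, 2865, 2558 and 2493 CPM in unstimulated knockout and 5105, 3463 and 4153 CPM in knockout with CpG. Every library with CpG lay above every unstimulated library of its genotype. The log2 fold change was 0.39 (SE 0.15, adjusted p = 0.191) in wild-type, which did not pass, and 0.68 (SE 0.15, adjusted p = 0.0087) in knockout, which did. The log2 differences within the 3 wild-type pairs were 0.43, 0.29 and 0.45, and with the pairing the adjusted p in wild-type was 0.00751. Without unstimulated knockout number 2 the knockout value was 0.66, with an adjusted p of 0.0504. Knockout with CpG number 2, the library low in S100a8, had the lowest Lcn2 of its group.

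Camp encodes the cathelicidin precursor, and Ngp a related protein with a cathelin-like domain that is stored with it. Camp ranged from 1589.8 to 2447 CPM over the 12 libraries, with group means of 1949 ± 443, 2021 ± 308, 1885 ± 63.5 and 2115 ± 457 CPM in unstimulated wild-type, wild-type with CpG, unstimulated knockout and knockout with CpG. Its log2 fold change with CpG was 0.052 (SE 0.19, adjusted p = 0.956) in wild-type and 0.17 (SE 0.19, adjusted p = 0.701) in knockout. Ngp stood at 15298, 20099.9 and 16217 CPM in unstimulated wild-type, 14433, 17246 and 15633 CPM in wild-type with CpG, 16584, 17529 and 16519 CPM in unstimulated knockout and 20170.2, 17305 and 16828 CPM in knockout with CpG. All 4 groups overlapped, and Ngp varied least of the 10 genes, with an SD of 0.14 in log2 CPM over the 12 libraries against 0.60 for Hp. The 95% intervals of its log2 fold change ran from -0.45 to 0.20 in wild-type and from -0.22 to 0.43 in knockout.

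Chil3 (Ym1) is a chitinase-like lectin without enzyme activity that neutrophil precursors make in large amounts. Its values were 2287, 3435 and 2090.5 CPM in unstimulated wild-type, 2115, 2905 and 2075 CPM in wild-type with CpG, 2272, 2476 and 2485 CPM in unstimulated knockout and 2762, 1819 and 2574 CPM in knockout with CpG. Wild-type number 2 was the highest wild-type library in both treatments, and knockout with CpG number 2 was the lowest of all 12. Log2 fold changes with CpG were -0.14 (SE 0.21, adjusted p = 0.864) and -0.016 (SE 0.21, adjusted p = 0.98) in wild-type and knockout. The near-identical gene Chil4 held 2 counts in all 12 libraries, from 1 predicted transcript, so how reads shared by the 2 genes were divided is uncertain. By contrast Chil1, another member of the chitinase-like family, rose with CpG by 0.70 (SE 0.13, adjusted p = 0.00538) on the log2 scale in wild-type and by 1.24 (SE 0.13, adjusted p = 3.25e-05) in knockout.

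Haptoglobin (Hp) binds free haemoglobin and is made in developing granulocytes as well as in the liver. Hp measured 523, 518 and 715 CPM in unstimulated wild-type, 805, 875 and 1184 CPM in wild-type with CpG, 530.2, 540.2 and 450.3 CPM in unstimulated knockout and 1212, 1520.0 and 1140.2 CPM in knockout with CpG. All libraries with CpG stood above all unstimulated libraries, in each genotype and across both. The group means were 586 ± 112 and 954 ± 201 CPM in wild-type and 507 ± 49.3 and 1291 ± 202 CPM in knockout (SD, n = 3). On the log2 scale Hp rose by 0.70 (SE 0.18, adjusted p = 0.0306) in wild-type and by 1.35 (SE 0.18, adjusted p = 0.000189) in knockout. Pair by pair, wild-type samples rose by 0.62, 0.76 and 0.73.

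The wild-type call of Hp was lost under more alternatives than the knockout call. It did not hold in 5 of the 12 fits that each left out 1 library: without unstimulated wild-type number 1 (adjusted p = 0.129) or number 2 (0.122), wild-type with CpG number 2 (0.0556) or number 3 (0.123), or unstimulated knockout number 2 (0.0514). It was also lost with curated transcripts alone (0.0518) and without wild-type number 2 in both treatments (0.217), while the log2 value over all alternatives run stayed between 0.51 and 0.85. In knockout cells Hp passed in every alternative run.

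Matrix metalloproteinase 8 (Mmp8) is the neutrophil collagenase of specific granules, and Mmp9 is the gelatinase after which the tertiary granules are named. Mmp8 stood at 2138, 1774 and 2546 CPM in unstimulated wild-type, 1913, 1524 and 2058 CPM in wild-type with CpG, 1911, 1648 and 1391 CPM in unstimulated knockout and 2035, 1563 and 1267 CPM in knockout with CpG. Mmp9 stood at 4392, 3264 and 4918 CPM, 4167, 3015 and 4279 CPM, 3902, 3432 and 2650.0 CPM and 4283, 4048 and 2499 CPM in the same groups. For both genes wild-type number 2 and knockout number 3 were the low samples of their genotype, with and without CpG, and treatment groups overlapped. With CpG, Mmp8 gave -0.23 (SE 0.19, adjusted p = 0.68) in wild-type and -0.025 (SE 0.20, adjusted p = 0.968) in knockout, neither past the threshold, and the paired wild-type fit gave an adjusted p of 0.0455. Mmp9 gave -0.13 (SE 0.23, adjusted p = 0.886) and 0.12 (SE 0.23, adjusted p = 0.847).

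Mmp25 is a metalloproteinase held to the membrane by a glycolipid anchor and was the least abundant of the 10 by TPM. It ranged from 299.9 to 520.3 CPM over the 12 libraries. Its log2 fold change with CpG was -0.019 (SE 0.17, adjusted p = 0.981) in wild-type and 0.35 (SE 0.17, adjusted p = 0.249) in knockout. A predicted transcript held 50.6% of its counts, and a curated one 46.7%. With curated transcripts alone the wild-type estimate was 0.13, still not past the threshold.

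Adam8, a membrane-bound metalloprotease and disintegrin stored in neutrophil granules, was the 1 granule gene that fell in both genotypes. Adam8 measured 1918, 1982 and 1992 CPM in unstimulated wild-type, 1331, 1236 and 1286 CPM in wild-type with CpG, 2356, 2427 and 2049 CPM in unstimulated knockout and 1339.9, 1391 and 1147 CPM in knockout with CpG. The wild-type groups were tight and far apart, and every library with CpG lay below every unstimulated one in both genotypes. The log2 fold change was -0.61 (SE 0.12, adjusted p = 0.00507) in wild-type and -0.82 (SE 0.12, adjusted p = 0.000338) in knockout, and wild-type pairs changed by -0.53, -0.68 and -0.63. It passed in each of the 12 fits without 1 library in both genotypes. Without wild-type number 2 in both treatments, which leaves 2 libraries in each wild-type group, the wild-type value was -0.58 with an adjusted p of 0.112. Of its counts 66.3% came from 1 curated transcript and 27.4% from another, and the share of the first differed little between groups (means from 64.4 to 68.1%).

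Markers of monocytes and macrophages, 15 in all, were read beside these results. Their sum was 945 to 957 CPM in unstimulated wild-type and 1389 to 1446 CPM with CpG, and 735 to 857 and 1419 to 1815 CPM in the knockout. In both genotypes 2 of the 15 passed edgeR's test, Csf1r and Adgre1, both higher, where 6.04% of all tested genes passed in wild-type and 11.6% in knockout. Most of the rise in the wild-type sum was Csf1r, which went from a mean of 197 to 550 CPM. Ccr2, F13a1 and Fn1 were lower in every wild-type library with CpG, and none of these 3 passed. With CpG, Csf1r was also higher in knockout than in wild-type (0.63, adjusted p = 0.00986). The paired wild-type fit called 6, of which 3 were higher and 3 lower, where it called 16.9% of all genes. None of the 15 was at 0 in all libraries. Their part in the Hp, Lcn2 and Adam8 results was not tested.

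Knockout and wild-type cells were then compared within each treatment. These comparisons share their libraries with the CpG comparisons. Loss of Rab27a cannot be told apart in them from other genetic differences between the animals. Ltf, Camp, Ngp and Mmp8 lie on chromosome 9, as does Rab27a. Outside the granule genes, Hbb-bt averaged 388 CPM in unstimulated wild-type and 2.00 CPM in unstimulated knockout, and Cd3d averaged 4.58 and 139 CPM. Without CpG, 0 of 10 granule genes passed edgeR's quasi-likelihood test, where 4.75% of all genes did, and 0 of 10 had an unadjusted p of at most 0.05. With CpG, 0 of 10 passed, where 3.92% of all genes did, and Hp and Ltf had an unadjusted p of at most 0.05. DESeq2 also called 0 of 10 in both treatments. With library size alone as the scaling, genes called with CpG split into 155 higher and 314 lower in the knockout, against 184 and 239 with the main scaling. All 95% intervals of the log2 difference lay between -0.83 and 0.53 without CpG and between -0.60 and 0.81 with it, so a 2-fold difference was outside the interval of each of the 10 genes in both treatments.

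Without CpG, 8 of 10 estimates were lower in the knockout, with a median of -0.16 beside -0.010 over all genes. The lowest were those of the proteases Mmp8, -0.38 (SE 0.20, adjusted p = 0.341), Mmp9, -0.33 (SE 0.23, adjusted p = 0.512), and Mmp25, -0.27 (SE 0.17, adjusted p = 0.465). Groups did not overlap for 2 of 10 genes, where 25% of all genes did not. Adam8 was higher in every knockout library (0.21, adjusted p = 0.38) and Lcn2 was lower in every one (-0.26, adjusted p = 0.429).

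With CpG, 8 of 10 estimates were higher in the knockout with the main scaling and 4 of 10 with library size alone, under which those of Camp, Lcn2, Chil3 and Adam8 lay below 0. The main scaling gave a median of 0.051 beside -0.00094 over all genes. Hp had the highest, 0.44 (SE 0.18, adjusted p = 0.208), followed by Ltf, 0.40 (SE 0.17, adjusted p = 0.236). Groups overlapped for all 10 genes, where 20.4% of all genes did not overlap. Wild-type with CpG number 3, at 1184 CPM of Hp, lay above knockout with CpG number 3, at 1140.2 CPM.

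Whether the response to CpG differed between genotypes was tested as an interaction, the log2 fold change in the knockout minus that in wild-type. No gene of the 10802 passed with edgeR's quasi-likelihood test (0% called), 365 (3.38%) had an unadjusted p of at most 0.05, and DESeq2 called 3. None of the 10 granule genes passed with either tool. Hp had the largest estimate, 0.64 (SE 0.25, 95% interval 0.11 to 1.18, unadjusted p = 0.0224, adjusted p = 1), and Lcn2 gave 0.29 (SE 0.21, 95% interval -0.17 to 0.75). Estimates were above 0 for 9 of 10 genes, with a median of 0.23 beside 0.012 over all genes, and Adam8 was the exception at -0.20 (SE 0.16). With genotype and number as a replicate block, Hp had an adjusted p of 0.0494. Knockout number 2, at 0.085, lay below the correlation of 0.1 asked of a pair. The signs were the same under each scaling. Those of Camp and Chil3 turned when unstimulated wild-type number 2, or knockout number 1 in both treatments, was left out, and that of Camp also turned without wild-type with CpG number 1. Because the 10 genes were measured in the same 12 libraries, their estimates are not independent of each other. The interaction also equals the genotype difference with CpG minus that without it, so its signs are not separate from those given above.

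**Figure D3:**
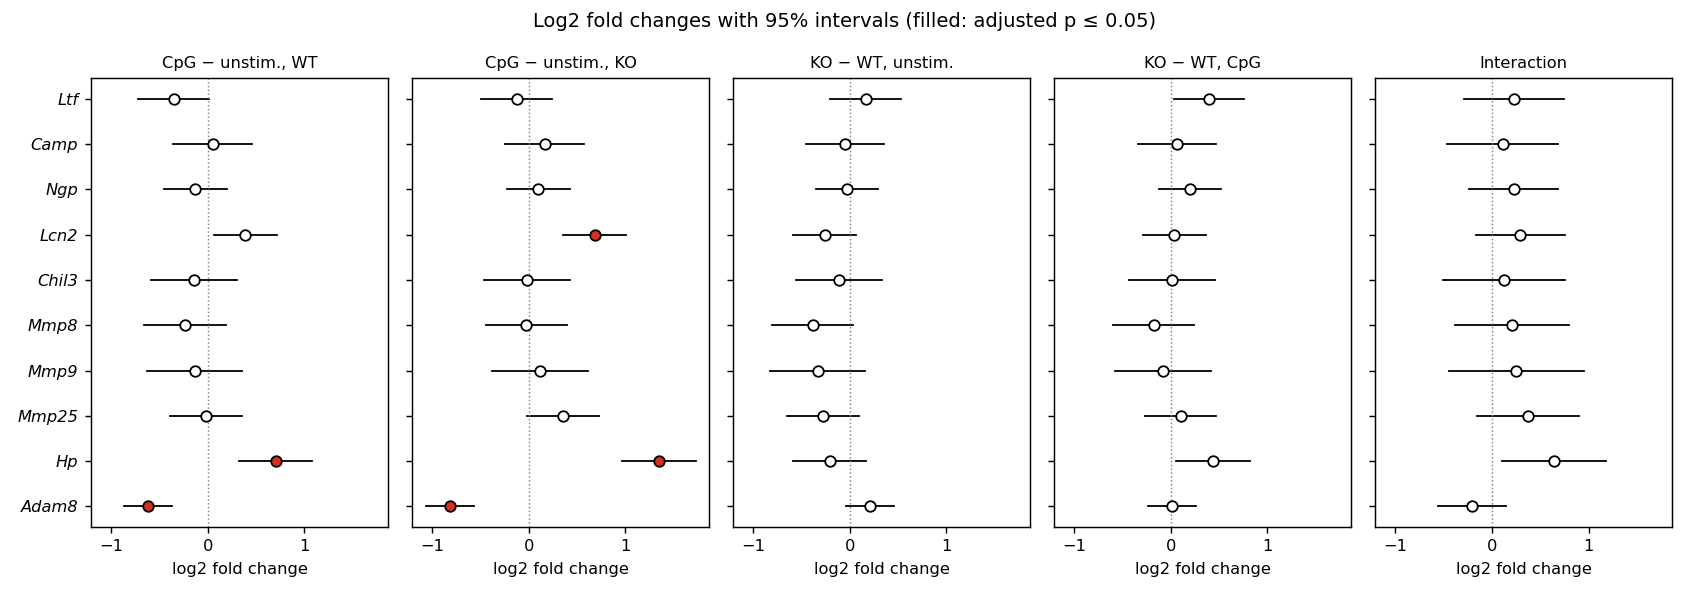
Log2 fold change with its 95% interval for each granule gene in 5 panels: the effect of CpG in wild-type and knockout, the difference between genotypes without and with CpG, and the interaction, with a line at 0 and filled points for calls. With CpG the intervals of Hp lie above 0 and those of Adam8 below 0 in both genotypes, and no genotype difference of a granule gene passed after adjustment over all genes.

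Beyond treatment, the genes separated into sets that differed between samples. In wild-type cells, number 2 was the highest library both with and without CpG for Ltf, Camp, Ngp and Chil3, 4 of the 10, where 17.7% of all tested genes had this pattern. The same samples were the lowest in both treatments for Mmp8, Mmp9 and Mmp25, 3 of the 10, where 19.1% of all genes were. Wild-type number 3 was the highest in both for Lcn2, Mmp8, Mmp9 and Hp (22.2% of all genes). In the knockout, number 3 was the lowest in both treatments for 7 of the 10, Ltf, Ngp, Mmp8, Mmp9, Mmp25, Hp and Adam8, where 27.4% of all genes were. Knockout number 1 was the highest in both for Lcn2, Mmp8 and Mmp9 (18.8% of all genes).

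The ratio of Ngp to Mmp9, each in CPM, sets a gene high in wild-type number 2 against a gene low there. It does not stand for the 2 granule types, since Mmp8, the collagenase of specific granules, was low with Mmp9. The genes differ in length, so only its differences between samples are read. It was 3.48, 6.16 and 3.30 in unstimulated wild-type libraries 1, 2 and 3, and 3.46, 5.72 and 3.65 with CpG. Number 2 stood apart in both treatments, by more than any wild-type pair moved with CpG. That it was highest follows from Ngp being highest and Mmp9 lowest in number 2, as given above. In the knockout the ratio was 4.25, 5.11 and 6.23 without CpG and 4.71, 4.28 and 6.74 with it, highest in number 3 both times. Markers of immature granulocytes were read in the same samples. Knockout number 3 held the highest Mpo, 223 and 154 CPM, the highest level of the elastase gene Elane, 50.8 and 44.2 CPM, and the highest level of the proliferation marker Mki67, 609 and 622 CPM. In wild-type number 2, Mpo stood at 99.2 and 61.6 CPM, the latter the lowest of the 6 wild-type libraries, and Mki67 at 476 and 471 CPM.

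The whole lists of such genes were read in the same 2 samples. All 3 progenitor genes tested, Myb, Kit and Cd34, were highest in both treatments in wild-type number 2 among wild-type samples, and in knockout number 3 among knockout samples. Myb, a regulator of blood progenitors, measured 26.4, 35.8 and 27.7 CPM in unstimulated wild-type libraries 1, 2 and 3 and 23.6, 30.2 and 25.7 CPM with CpG. Of the 14 immature and cycling genes, 6 were highest in both treatments in wild-type number 2 (Birc5, Ccnb2, Cdc20, Cdk1, Fcnb and Nusap1) and 13 in knockout number 3. Of the 11 primary granule genes, 1 was highest and 2 were lowest in both treatments in wild-type number 2, and 8 were highest in knockout number 3. Of the 13 granulocyte transcription factors, 4 were highest and 1 was lowest in both treatments in wild-type number 2. In knockout number 3, 1 of the 13 was highest and 2 were lowest. The 1 factor highest in both of these samples was the repressor gene Gfi1, which acts in granulocyte precursors. It stood at 11.9 and 11.3 CPM in wild-type number 2. Over all tested genes, 17.7% were highest in both treatments in wild-type number 2 and 21.9% in knockout number 3. The part of immature cells in these differences was not tested.

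**Figure D4:**
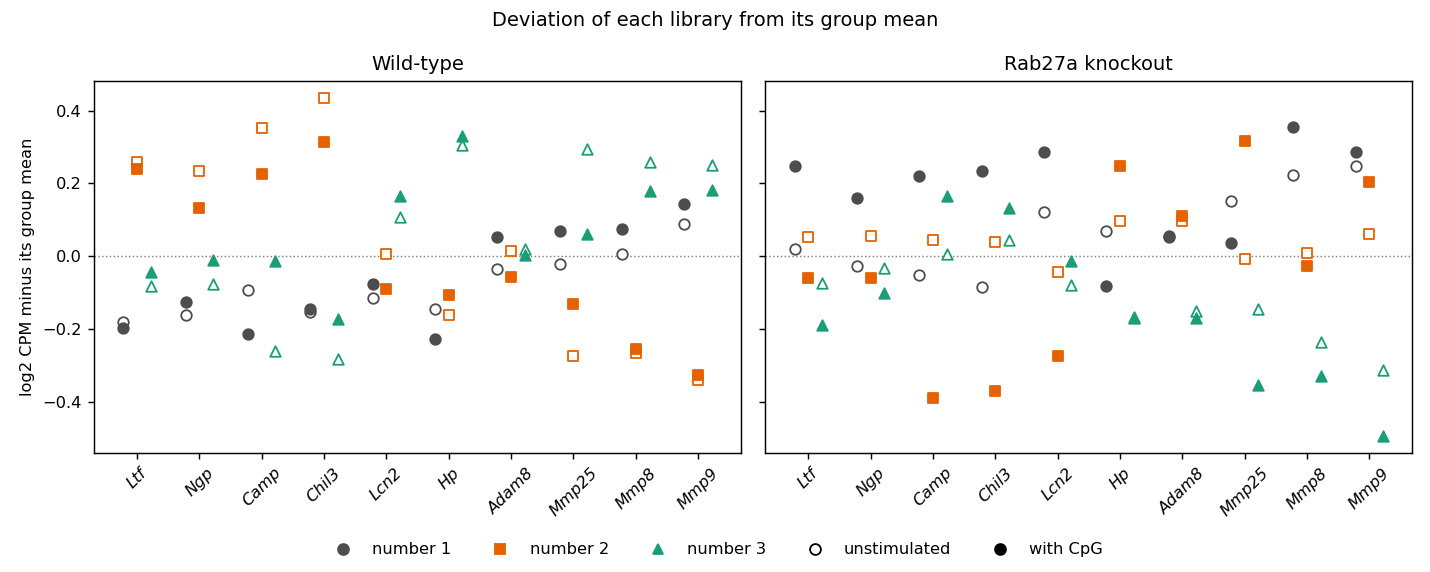
Deviation of each granule gene from its group mean, in log2 CPM, for each of the 12 libraries. Wild-type number 2 is above its group for Ltf, Camp, Ngp and Chil3 and below it for Mmp8, Mmp9 and Mmp25, in both treatments.

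**Figure D5:**
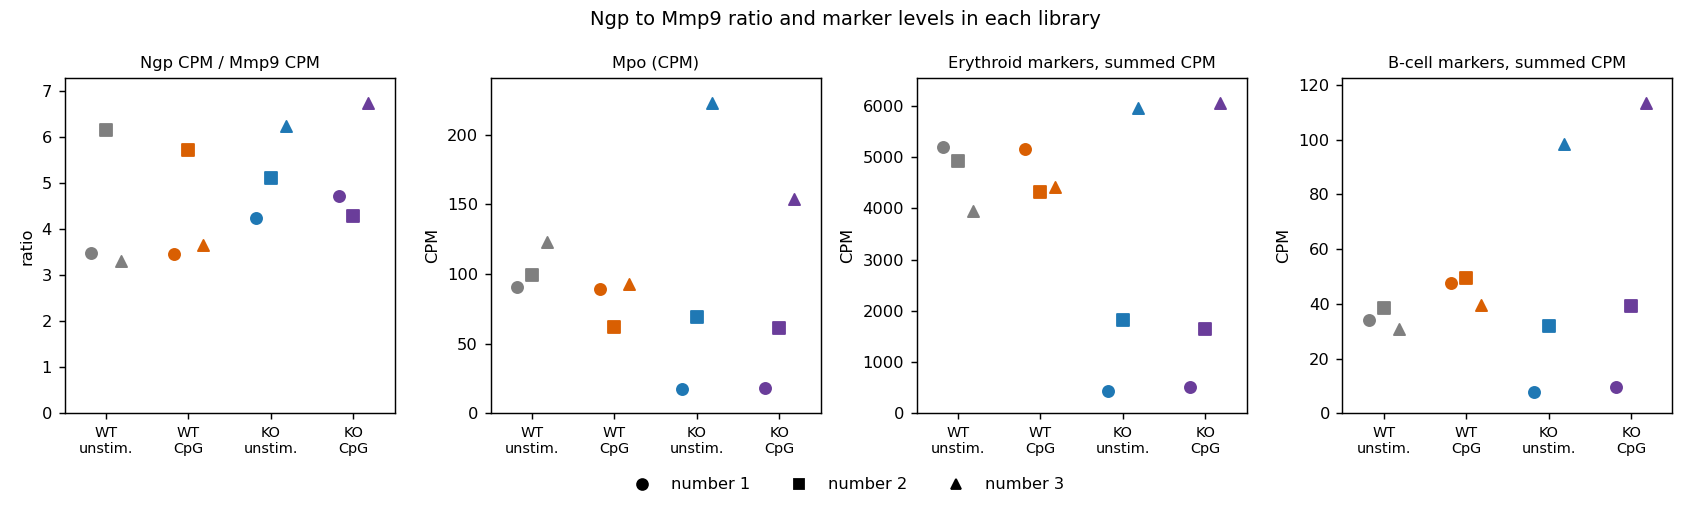
Ratio of Ngp to Mmp9 (both in CPM), CPM of Mpo, and summed CPM of erythroid and of B cell markers in each library, by group, with the shape giving the sample number. Within each genotype the ratio is highest in wild-type number 2 and knockout number 3, and Mpo and both marker sums are highest in knockout number 3. In wild-type the place of number 2 follows from Ngp being highest and Mmp9 lowest there.

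Likeness of pattern was measured as the root mean square distance between log2 CPM values centred on each gene's mean over the 12 libraries, so that 0 is an identical pattern. The closest pairs among the 10 genes were Camp with Chil3 (0.116), Mmp8 with Mmp9 (0.120) and Ltf with Ngp (0.161), and the farthest were Hp with Adam8 (0.910). Chil3 had Camp as its nearest gene among the 7913 compared. For the other 9 genes a gene outside the set was nearer: Ly75 for Ltf (0.0712), Bub3 for Camp (0.0992), Bmt2 for Ngp (0.0756), Dram2 for Lcn2 (0.101), Add3 for Mmp8 (0.0938), Add3 for Mmp9 (0.117), Sh3bp1 for Mmp25 (0.0833), Tapbp for Hp (0.134), and Cytip for Adam8 (0.104). The likeness of Ltf and Ngp was not close among all genes, since Ngp ranked 53 in distance from Ltf and Ltf ranked 773 from Ngp. These distances rest on 12 libraries that share their depth and sample differences. They also depend on how much a gene varies: the median distance to the genes compared was 0.256 for Ngp and 0.618 for Hp.

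Promoter sequences are shown for Ltf, Ngp, Mmp8 and Lcn2. Ltf and Ngp were high in wild-type number 2, as were Camp and Chil3, whose promoters are not printed. Mmp8 was low there, as were Mmp9 and Mmp25, which are not printed either. Lcn2 rose with CpG in the knockout. Of the 10 genes, 8 had an entry in the RefSeq promoter table (assembly GRCm38.p6). Mmp9 and Hp had none. The 250 bases before the transcription start are printed 5′ to 3′ on the strand of the gene, with matches to the C/EBP-like motif TTGCNNAA, on either strand, in capitals. The windows are chr9:111019042-111019291 on the plus strand for Ltf, chr9:110419558-110419807 on the plus strand for Ngp, chr9:7558179-7558428 on the plus strand for Mmp8 and chr2:32387740-32387989 on the minus strand for Lcn2.
Ltf: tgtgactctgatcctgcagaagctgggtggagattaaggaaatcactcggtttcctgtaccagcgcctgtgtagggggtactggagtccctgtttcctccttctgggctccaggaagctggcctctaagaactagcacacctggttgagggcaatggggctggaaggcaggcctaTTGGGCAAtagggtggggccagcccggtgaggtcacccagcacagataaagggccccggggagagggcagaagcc
Ngp: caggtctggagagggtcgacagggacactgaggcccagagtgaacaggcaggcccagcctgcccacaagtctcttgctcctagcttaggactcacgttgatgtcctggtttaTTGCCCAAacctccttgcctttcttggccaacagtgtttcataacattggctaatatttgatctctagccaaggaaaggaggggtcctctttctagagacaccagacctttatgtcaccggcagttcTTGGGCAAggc
Mmp8: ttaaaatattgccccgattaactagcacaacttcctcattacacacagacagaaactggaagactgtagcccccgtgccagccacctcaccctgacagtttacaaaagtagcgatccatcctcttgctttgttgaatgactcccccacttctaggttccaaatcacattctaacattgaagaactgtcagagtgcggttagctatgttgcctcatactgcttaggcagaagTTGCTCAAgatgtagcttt
Lcn2: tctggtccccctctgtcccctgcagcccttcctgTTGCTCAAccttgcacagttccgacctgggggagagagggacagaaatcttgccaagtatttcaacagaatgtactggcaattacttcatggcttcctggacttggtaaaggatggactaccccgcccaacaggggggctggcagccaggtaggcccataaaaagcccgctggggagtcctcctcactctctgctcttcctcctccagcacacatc

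The match begins 75 bases before the start in Ltf, 138 and 11 bases before it in Ngp, 19 in Mmp8 and 216 in Lcn2. With Adam8, 5 of the 8 promoters held the motif in the window from 250 bases before to 50 bases after the start. A single promoter was read for each granule gene. That of Adam8, chr7:139992563-139992812 on the minus strand, lies inside the gene, which ends at 139995207, so its start is not the outermost. Of all 32851 promoters in the table, 10.8% did. The remaining promoters, those of Camp, Chil3 and Mmp25, held no match. Genes with and without a match were thus found among those high, and among those low, in the wild-type sample named above. An NF-kB-like motif (GGG, any 3 bases, then TTCC) was in 0 of 8, beside 5.56% of all promoters, and an AP-1-like motif (TGANTCA) in 0 of 8, beside 7.81%. Both strands were searched. A match is a description of letters, and no binding was measured.

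The C/EBP factors that act on such genes in developing granulocytes were read as transcripts. Cebpe, the factor tied to specific granules, stood at 77.9 ± 12.5, 69.0 ± 6.12, 73.5 ± 5.75 and 73.4 ± 7.01 CPM in unstimulated wild-type, wild-type with CpG, unstimulated knockout and knockout with CpG, and passed in no comparison. Cebpd gave log2 fold changes with CpG of -0.019 (SE 0.15, adjusted p = 0.978) in wild-type and -0.20 (SE 0.15, adjusted p = 0.51) in knockout. Cebpb gave 0.77 (SE 0.24, adjusted p = 0.0935) and -0.21 (SE 0.24, adjusted p = 0.706). Of 13 granulocyte transcription factors tested, 0 passed with CpG in wild-type by edgeR's test, 4 had an unadjusted p of at most 0.05, and DESeq2 called 1, Cebpb. The paired fit called 2 in wild-type, Cebpb higher (adjusted p = 0.0329) and Cux1 lower (adjusted p = 0.0111), the second named after its value was seen. Over all tested genes the paired fit called 16.9%, and edgeR's test 6.04% with CpG in wild-type and 11.6% in knockout. In the knockout 1 fell with CpG, Cebpa at -0.68 (SE 0.20, adjusted p = 0.0454). Between genotypes 1 was lower in unstimulated knockout cells, Ets1 at -0.75 (SE 0.13, adjusted p = 0.00362). Over all genes, edgeR's test called 4.75% in that comparison and 3.92% in the one with CpG. With CpG 0 passed between genotypes by edgeR's test or DESeq2, and 4 had an unadjusted p of at most 0.05.

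Other proteins of the same granules were taken from a list of 28 genes, of which 26 were tested. With CpG 5 rose and 1 fell in wild-type, where 6.04% of all tested genes were called, and 8 rose and 1 fell in knockout, where 11.6% were. The paired wild-type fit called 8 higher and 2 lower, where it called 16.9% of all genes. The formyl peptide receptors, which sense bacterial peptides and reach the surface from these granules, were among them: Fpr1 rose by 1.32 (SE 0.14, adjusted p = 5.33e-05) in wild-type and 1.80 (SE 0.14, adjusted p = 1.9e-06) in knockout, and Fpr2 by 1.03 (SE 0.12, adjusted p = 0.000105) and 1.50 (SE 0.12, adjusted p = 2.04e-06). Ggta1, a galactosyltransferase, rose by 1.41 (SE 0.19, adjusted p = 0.000441) and 1.46 (SE 0.19, adjusted p = 0.000192). The gene that fell in both was Tcn2, a cobalamin carrier, at -0.34 and -0.56, named after its value was seen. The medians of the list were 0.071 and 0.12. Between genotypes 0 of 26 passed without CpG, by edgeR's test or DESeq2, and 3 had an unadjusted p of at most 0.05. Of all genes, edgeR's test called 4.75% between genotypes without CpG and 3.92% with it. With CpG 1 was higher in the knockout, Cybb, the catalytic subunit of the phagocyte oxidase, at 1050.3, 1238 and 1141 CPM in wild-type and 1772, 1783 and 1582 CPM in knockout. Its log2 difference was 0.58 (SE 0.13, adjusted p = 0.0189).

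Genes of the primary (azurophil) granules, which form before the specific granules, served as a neighbouring class. Over all tested genes, edgeR's test called 6.04% with CpG in wild-type and 11.6% in knockout, and the paired wild-type fit called 16.9%. Between genotypes edgeR's test called 4.75% without CpG and 3.92% with it. Of 11 primary granule genes tested, 0 passed with CpG in wild-type by edgeR's test or DESeq2, and 1 had an unadjusted p of at most 0.05. In the knockout 1 fell, the lysosomal glucuronidase Gusb at -0.75 (SE 0.14, adjusted p = 0.00283), and the paired wild-type fit called the same gene lower (adjusted p = 0.0249). None of the 11 passed between genotypes with either tool, where 3 had an unadjusted p of at most 0.05 without CpG and 0 with it. Of 14 genes of immature and cycling granulocytes, 0 passed in any of the 5 comparisons by edgeR's quasi-likelihood test or DESeq2, and 0 in the paired wild-type fit, while 1 had an unadjusted p of at most 0.05 in each genotype comparison and 0 in the others. Among 14 genes of mature neutrophils 1 rose and 1 fell with CpG in each genotype. Mxd1, a transcriptional repressor, rose with CpG by 0.60 (SE 0.13, adjusted p = 0.0141) in wild-type and 0.79 (SE 0.13, adjusted p = 0.00129) in knockout. The chemokine gene Ccl6 fell, with log2 fold changes of -1.04 (SE 0.26, adjusted p = 0.0339) and -1.36 (SE 0.26, adjusted p = 0.00399). The receptor Cxcr2 gave -0.37 (SE 0.20, adjusted p = 0.406) and 0.11 (SE 0.20, adjusted p = 0.838), and the resistin-like gene Retnlg -0.42 (SE 0.20, adjusted p = 0.31) and -0.64 (SE 0.20, adjusted p = 0.0559). The paired wild-type fit called 1 of the 14 higher and 4 lower, Cxcr2 among the latter (adjusted p = 0.0224).

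Inhibitors and receptors of the granule proteins were listed as well, and 6 of 9 were tested. None passed in wild-type with CpG by edgeR's test, 2 had an unadjusted p of at most 0.05, and DESeq2 called 1, Timp2. The paired fit called 2 in wild-type, both lower, Timp2 (adjusted p = 0.0027) and Reck (adjusted p = 0.0288), the second named after its value was seen. By comparison, the paired fit called 16.9% of all genes, and edgeR's test 6.04% with CpG in wild-type and 11.6% in knockout. In the knockout 2 fell, Timp2, an inhibitor of metalloproteinases, with a log2 fold change of -0.59 (SE 0.13, adjusted p = 0.0104), and Lrp1, a receptor that takes up lactoferrin and proteases, with -1.04 (SE 0.27, adjusted p = 0.024). Timp1, an inhibitor of Mmp9, had 14 counts over all 12 libraries and was not tested.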

How the data were processed

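Poly(A) RNA of 12 samples was sequenced on an Illumina HiSeq, per the labels' protocols. The authors deposited estimated counts for each RefSeq transcript, used here as they stand. TPM values are the authors' own scaling for length and library, per the file headers, and summed here per gene to compare levels between genes. FPKM values were deposited by the authors and were not used here. Bowtie2 and RSEM 1.2.28 with build GRCm39 are named in the submitters' processing notes, without their roles. No source used here gives the strandedness or the number of animals.

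Counts were summed per gene and rounded. Of 15986 genes, 15883 matched a symbol in the RefSeq table of GRCm38.p6, which was used for names only. Promoter sequences came from a RefSeq table of the same assembly. filterByExpr (smallest count 10, smallest total 15) left 10802 genes. edgeR 4.0.16 (R 4.3.3) fitted 1 mean per group to all 12 libraries with TMM scaling, leaving 8 residual degrees of freedom. P-values from the quasi-likelihood test were adjusted by Benjamini-Hochberg over all genes tested, in each of 5 comparisons, and a gene was called at 0.05 or below. Standard errors and 95% intervals came from the same fit. Precision is set by 3 libraries per group and a spread between them of 17.1% (the square root of a common dispersion of 0.0293). CPM uses TMM-scaled library sizes, and distances used log2 CPM with a prior count of 1 for genes averaging at least 5 CPM. The fit was checked on simulated counts.

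Deviations from the group means of wild-type libraries with the same number were correlated with r of 0.28, 0.41 and 0.44, all above 0.1, so the paired fit is given for wild-type where it changed a call or count. That fit set number as a block in both genotypes, so its spread also came from the knockout libraries. In the knockout the correlations were 0.62, 0.085 and 0.68. Number 2 lay below 0.1, so the paired fit was not taken up there. Each knockout library still correlated most with its own number, where libraries of different numbers reached at most 0.030.

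All 10 genes are named in every comparison. From each other list, up to 3 called genes with the largest change and at least 5 CPM are named, with a short set of genes named whatever their value. The genes and lists were chosen with earlier results of these data known. Alternatives were other scalings, filters and fits, DESeq2 1.42.0, curated transcripts alone, replicate blocks and leaving out libraries. Leaving out wild-type number 2, knockout number 1 or knockout number 3 in both treatments was added after the data were seen.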

Additional observations from a re-analysis of the deposited data

How the results depend on the processing

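Of 1225 values of single granule genes under an alternative, 1211 kept their direction and their side of the threshold, 9 lost a call, 5 gained one and 0 reversed. Values not called under either setting are part of the 1211 whatever their sign, and 53 of 1090 changed sign.

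For CpG in wild-type, 652 genes were called, against 1824 with genotype and number together as a replicate block, 425 with curated transcripts alone, 264 without wild-type number 2 in both treatments and 425 to 758 without 1 library. The granule genes called numbered 5, 1 and 0 under the first 3 of these settings and 1 to 2 without 1 library. For CpG in knockout, 1257 became 2591 with that block and 818 to 1347 without 1 library, and the granule genes called, 3 in the main fit, numbered 2 to 3 without 1 library. With the block Mmp25 (0.33, adjusted p = 0.0381) was also called in the knockout, where number 2 correlated at only 0.085. For genotype without CpG, 513 became 782 with DESeq2, 283 with curated transcripts, 341 without knockout number 1 and 278 to 604 without 1 library. For genotype with CpG, 423 became 734 with DESeq2, 253 with only the libraries compared, 227 with curated transcripts, 824 without knockout number 3 and 234 to 699 without 1 library, and no granule gene was called in either genotype comparison in any of these fits. For the interaction, 0 became 3 with DESeq2 and 13 with the block, where Hp was called (0.64, adjusted p = 0.0494) as the 1 granule gene. The cause of these shifts was not tested, beyond there being fewer libraries or fewer transcripts in some fits.

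With the 10 most abundant other genes taken out of the total, the mean share held by the granule genes was 5.05% in unstimulated wild-type, 4.54% in wild-type with CpG, 4.90% in unstimulated knockout and 4.81% in knockout with CpG. The alternative scalings shifted the median of all genes by less than 0.1. Adding the counts of Chil4 to Chil3 changed no call. The identity between proteins was planned and not run.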

Other observations

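Among other metalloproteases of the MMP and ADAM families, 10 of 21 listed were tested. Mmp14, a membrane-bound collagenase, rose with CpG from 2.27 ± 0.384 to 16.2 ± 6.56 CPM (SD, n = 3) in wild-type, 2.83 (SE 0.40, adjusted p = 0.000561) on the log2 scale by edgeR's quasi-likelihood test, and by 3.02 (SE 0.44, adjusted p = 0.000363) in the knockout. Adam17, the sheddase of membrane-bound tumour necrosis factor, stood at 113, 125 and 162 CPM in unstimulated wild-type, 265, 294 and 256 CPM in wild-type with CpG, 302, 279.7 and 243 CPM in unstimulated knockout and 559, 835 and 474 CPM in knockout with CpG. It rose with CpG in both genotypes, by 1.03 (SE 0.19, adjusted p = 0.0047) and 1.18 (SE 0.19, adjusted p = 0.000969), while its relative Adam8 fell. Adam17 was also higher in the knockout, by 1.04 (SE 0.19, adjusted p = 0.00531) on the log2 scale without CpG, and with CpG it was 2.29 times as high (adjusted p = 0.00201). Mmp19 was lower in the knockout with CpG, at -1.76 (SE 0.40, adjusted p = 0.0262), and no other listed gene passed in a genotype comparison. With CpG in wild-type, 2 of the 10 rose and 0 fell, and the paired fit called 2 higher and 2 lower. Of all genes, the main fit called 6.04% and the paired fit 16.9%.

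Genes of iron and haem handling, the setting in which lactoferrin, lipocalin 2 and haptoglobin act, gave 11 tested of 13 listed. Hmox1, which breaks down haem, stood at 429.6, 506 and 559.6 CPM in unstimulated wild-type and 665, 787 and 882 CPM with CpG, and at 213, 235 and 256 and 389.9, 449.6 and 457 CPM in the knockout. It rose with CpG by 0.64 (SE 0.14, adjusted p = 0.0108) in wild-type and 0.88 (SE 0.14, adjusted p = 0.000684) in knockout on the log2 scale. Its log2 difference between knockout and wild-type was -1.08 (SE 0.14, adjusted p = 0.000234) without CpG and -0.85 (SE 0.14, adjusted p = 0.00202) with it. The transferrin gene Trf was higher in the knockout without CpG (0.65, SE 0.16, adjusted p = 0.0283) and fell there with CpG (-0.98, SE 0.16, adjusted p = 0.000875). The iron transporter gene Slc11a2, at a mean of 3.21 CPM and named after its value was seen, rose with CpG in the knockout (1.79, SE 0.53, adjusted p = 0.0429). In wild-type cells 1 of the 11 rose with CpG and 0 fell, and the paired fit called 5 higher and 1 lower, Trf (adjusted p = 0.00394). The shares of all genes called were 6.04% in the main fit and 16.9% in the paired fit. Erythroid markers differed between the knockout samples as given above, and their part in these differences was not tested.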
